A study of Mus musculus and Homo sapiens with 24 samples.

Results

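Cytosolic ribosomal protein genes encode the protein part of the ribosome, the particle that translates mRNA in the cytoplasm. They were examined in HepG2 cells, a human hepatoma line, treated with estrogen, with CoCl2, or with both. Genes were chosen by symbol alone, as RPL or RPS followed by a number, the stalk genes RPLP0, RPLP1 and RPLP2, RPSA, and FAU. Of 28278 genes listed for HepG2 cells, 85 symbols matched, and 83 had a count above 5 in at least 1 of the 12 libraries. Those 83 genes, 50 of the large subunit and 33 of the small subunit, are described here, and all 83 were tested in every comparison. RPL10L had no count in any library, and RPL39L had 2 counts in all 12 libraries together, which left both out.

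A mature ribosome holds 1 copy of nearly every ribosomal protein on a scaffold of ribosomal RNA. Most ribosomal protein mRNAs begin with a run of pyrimidines (the TOP motif) through which mTOR and the RNA-binding protein LARP1 control their translation, so their output is known to be set in large part without a change in mRNA level. The transcription factor MYC raises their transcription and the making of ribosomes in growing cells. Several genes have a second copy, or paralog, whose product can stand in the ribosome in place of the common form or act in its assembly.

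HepG2 cells were studied in 4 groups of 3 libraries labelled A, B and C. The groups were untreated control, 50 μM CoCl2 for 4 hours, 25 nM β-estradiol for 4 hours (estrogen), and both agents for 4 hours (CoCl2+estrogen). CoCl2 stabilises HIF1α and stood in for hypoxia, and the study's culture methods place the cells in serum-free medium overnight before treatment. All groups share 1 cell line, and the labels do not say whether the 3 libraries of a group came from separate cultures, so p-values measure the spread between these libraries, which may be technical. Total counts ran from 13592637 to 21701480 per library. All 10 hepatocyte markers were detected, with ALB between 2390 and 7460 CPM (counts scaled to a common library size), whereas PTPRC and CD3E (leukocytes), KDR (endothelium), and COL1A2, COL3A1 and DCN (fibroblasts) had no count in any library. Other markers of these lists were detected, with LYZ at 791 to 1300 CPM and CD68 at 13.2 to 37.5 CPM (leukocytes), COL1A1 at 0.652 to 24.4 CPM and PDGFRB at 5.91 to 8.43 CPM (fibroblasts), and PECAM1 at 0.599 to 2.08 CPM (endothelium). The 6 leukocyte markers summed to 1160 to 1330 CPM in control and 805 to 911 CPM with estrogen, and the 6 fibroblast markers to 27.2 to 31.5 CPM and 8.29 to 8.49 CPM. The summed hepatocyte markers lay between 30400 and 33200 CPM in the 6 libraries without estrogen and between 15400 and 17800 CPM in the 6 with it. The part of these drops in the results below was not tested, and in bulk RNA fewer cells of a type and less RNA per cell cannot be told apart.

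Ribosomal protein genes together took between 2.19% and 2.62% of each library's counts. The shares were 2.23%, 2.2% and 2.45% in control libraries A, B and C, and 2.39%, 2.38% and 2.31% with CoCl2. With estrogen they were 2.26%, 2.24% and 2.19%, and with CoCl2+estrogen 2.62%, 2.41% and 2.32%. The estrogen libraries therefore lay within the range of the controls or just below it, and every CoCl2+estrogen library lay above every estrogen library. The mean share was 2.29% ± 0.138 (SD, n = 3) in control, 2.36% ± 0.0418 with CoCl2, 2.23% ± 0.0333 with estrogen and 2.45% ± 0.154 with CoCl2+estrogen. By exact two-sided permutation tests, whose smallest p with 3 against 3 libraries is 0.1, p against control was 0.4 for CoCl2, 0.8 for estrogen and 0.3 for CoCl2+estrogen, and p was 0.1 for CoCl2+estrogen against estrogen (n = 3 in each group). None of these 4 passed 0.05, which this design cannot reach.

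Single genes were compared as CPM scaled by the trimmed mean of M values (TMM), a scaling that sets the middle of the library's genes level. A gene is called changed at a Benjamini-Hochberg adjusted p of at most 0.05, adjusted over all genes tested, in edgeR's quasi-likelihood test, and "adjusted p" below means this value. Because CPM is not corrected for transcript length, levels are compared between libraries and not between genes. In control cells, 50 of the 83 genes averaged 200 CPM or more, 25 lay from 50 CPM to under 200 CPM, 5 from 10 CPM to under 50 CPM, and 3 below 10 CPM. The last 3 were RPL3L at 0.452 ± 0.167 CPM, RPL36A at 1.97 ± 1.68 CPM and RPS28 at 5.71 ± 0.595 CPM (SD, n = 3). The genes with the most counts in control cells were RPL4 at 747 ± 29.7 CPM, RPS2 at 746 ± 50.7 CPM and RPL13 at 722 ± 66.9 CPM.

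Estrogen altered 44 of the 83 ribosomal protein genes, but most changes were small and they went in both directions. Of the 83, 32 rose, 12 fell and 39 did not pass the test. Over all 16281 genes tested, 68.9% were called, 34.7% higher and 34.2% lower, so the share of ribosomal protein genes called (53%) was below the background, the share called higher (38.6%) was near it, and the share called lower (14.5%) was under it. The middle of the sizes was 0.18 on the log2 scale for the ribosomal protein genes and 0.66 for all genes tested. Only 8 ribosomal protein genes moved by more than 0.5 on the log2 scale, against 59.9% of all genes tested. Among genes averaging at least 50 CPM over the 12 libraries, 40 of 75 ribosomal protein genes (53.3%) and 83% of 4637 other genes were called, with median sizes of 0.18 and 0.51. By subunit, 17 of 50 large subunit genes rose and 8 fell, and 15 of 33 small subunit genes rose and 4 fell.

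The direction of the small changes depended on the scaling. The median log2 change of the 83 genes was 0.12 with TMM, 0.05 with upper-quartile scaling and −0.01 with library totals alone. Library totals moved the median of all genes to −0.13, and relative to it the ribosomal protein genes again stood at 0.12. The calls were 32 higher and 12 lower with TMM, 16 and 14 with upper-quartile scaling, and 7 and 18 with library totals, so whether more ribosomal protein genes rose or fell under estrogen rested on the scaling. Leaving out estrogen library A, 21 genes were called higher. Over all genes, 5220 and 4850 of 16281 were called higher with upper-quartile scaling and library totals, and 5091 of 16116 without that library. Each was a larger share than of the 83.

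**Figure D1:**
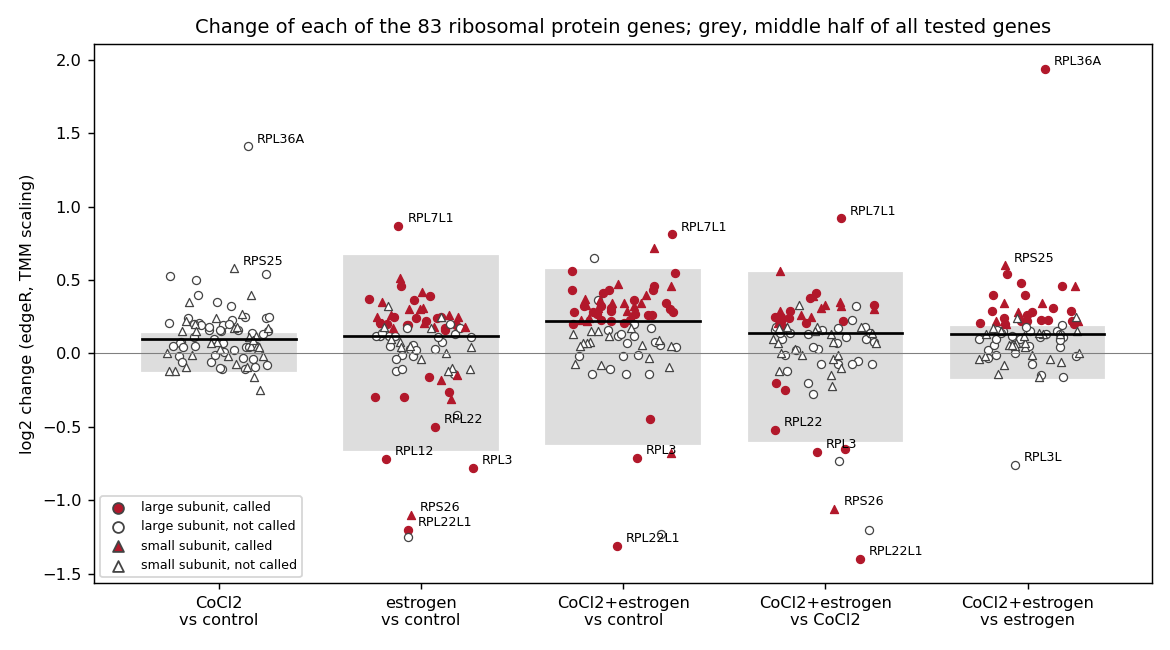
Log2 change of each of the 83 ribosomal protein genes in the 5 comparisons of 2 groups, with circles for the large subunit, triangles for the small subunit, filled symbols for called genes, a black line at their median and a grey box from the lower to the upper quartile of all tested genes. With estrogen the ribosomal protein genes crowd near 0 inside a wide grey box while RPL22L1, RPS26, RPL3, RPL12 and RPL7L1 stand apart, and the medians of 0.12 (estrogen against control), 0.22 (CoCl2+estrogen against control) and 0.14 (CoCl2+estrogen against CoCl2) become −0.01, 0.12 and 0.09 with library totals.

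A few genes left the narrow range. RPL3, a core protein of the large subunit beside the peptidyl transferase center, fell in every library with estrogen. Its level was 663, 660 and 646 CPM in control libraries A, B and C, 702, 559 and 659 CPM with CoCl2, 385, 404 and 359 CPM with estrogen, and 418, 427 and 383 CPM with CoCl2+estrogen. All 6 libraries with estrogen lay below all 6 without it. For RPL3 the log2 change with estrogen was −0.78 ± 0.06 (SE, fold 0.584, adjusted p = 1.3e-08). RPL12, a large subunit protein at the base of the stalk, measured 141, 134 and 168 CPM in control, 175, 177 and 159 CPM with CoCl2, 91.3, 89.7 and 87.6 CPM with estrogen, and 120, 108 and 102 CPM with both. Again no library with estrogen reached a library without it, and the log2 change was −0.72 ± 0.08 (SE, adjusted p = 1.13e-06). RPL3 and RPL12 pre-mRNAs are both known to be spliced in part into forms that nonsense-mediated decay removes, a loop by which each protein limits its own mRNA. Gene-level counts do not separate such forms.

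RPS26, a small subunit protein at the mRNA exit channel and a gene mutated in Diamond-Blackfan anemia, had the largest fall of a small subunit gene. It measured 45.5, 47.8 and 54.3 CPM in control, 51.0, 83.2 and 59.3 CPM with CoCl2, 24.8, 18.6 and 25.0 CPM with estrogen, and 36.5, 28.2 and 29.5 CPM with both. Libraries with estrogen all lay under those without it, and CoCl2 library B stood above the rest. With estrogen the log2 change was −1.10 ± 0.11 (SE, fold 0.466, adjusted p = 2.07e-07). RPS2, at the entry side of the same channel, fell by 0.31 ± 0.06 on the log2 scale (SE, adjusted p = 0.000411), from 731, 802 and 704 CPM to 615, 573 and 615 CPM. With CoCl2 it measured 774, 876 and 851 CPM, and with both agents 841, 640 and 698 CPM. The libraries with both agents overlapped with control, and that change was not called (log2 change −0.07 ± 0.08, SE, adjusted p = 0.486).

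RPL22 and its paralog RPL22L1 fell together. RPL22 binds RNA and is not required for the ribosome to work, and in mice its protein is known to hold down the mRNA of RPL22L1. RPL22L1 measured 38.7, 34.8 and 36.0 CPM in control, 41.4, 38.5 and 36.9 CPM with CoCl2, 17.9, 11.8 and 17.6 CPM with estrogen, and 19.2, 11.8 and 14.2 CPM with both. The 2 sets of 6 libraries, without and with estrogen, did not overlap. With estrogen the log2 change was −1.2 ± 0.13 (SE, fold 0.435, adjusted p = 5.09e-07), the largest fall among the called genes. RPL22 measured 154, 153 and 156 CPM in control and 106, 101 and 119 CPM with estrogen, a log2 change of −0.50 ± 0.07 (SE, adjusted p = 9.37e-06). With CoCl2 it measured 171, 253 and 184 CPM and with both agents 165, 127 and 137 CPM, so CoCl2+estrogen library A lay within the range of the libraries without estrogen.

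**Figure D2:**
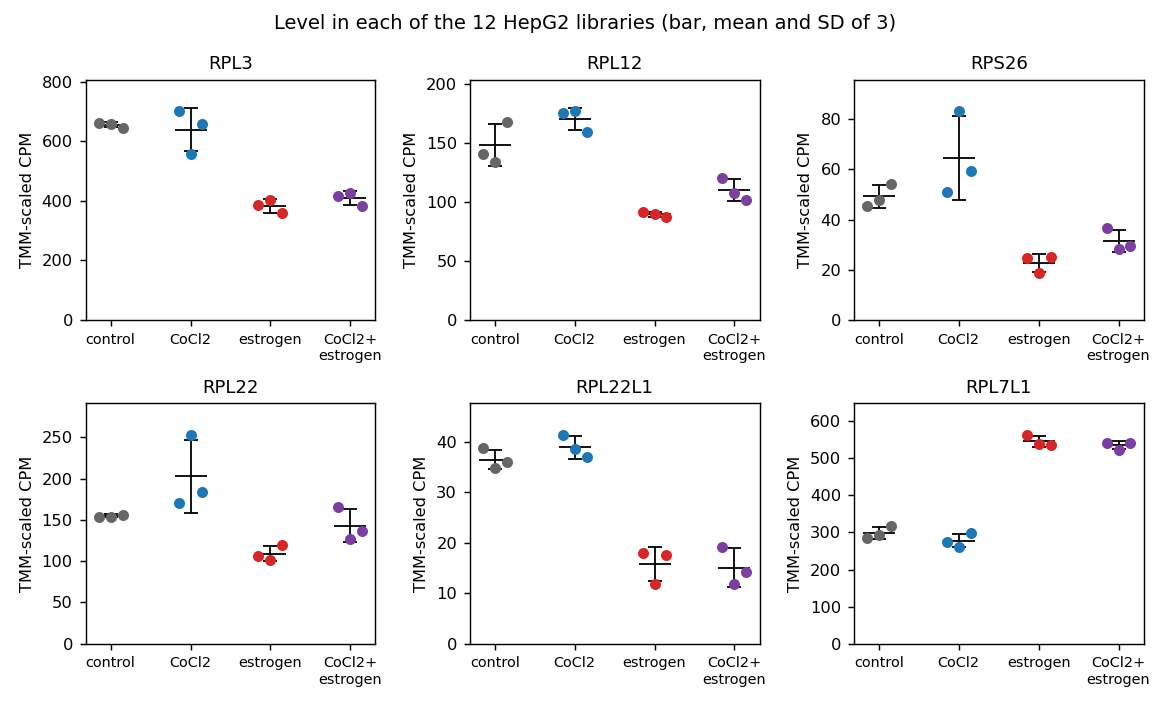
TMM-scaled CPM of 6 ribosomal protein genes in each of the 12 libraries, with points in the order A, B, C and bars for the mean and SD of 3 libraries. RPL3, RPL12, RPS26 and RPL22L1 are lower, and RPL7L1 higher, in all 6 libraries with estrogen than in all 6 without it, whereas RPL22 overlaps through CoCl2+estrogen library A at 165 CPM.

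RPL7L1 was the gene that rose most. It is a paralog of RPL7 known from precursors of the large subunit rather than from mature ribosomes. Its level was 286, 293 and 317 CPM in control, 275, 261 and 298 CPM with CoCl2, 563, 537 and 535 CPM with estrogen, and 541, 522 and 541 CPM with both. The lowest library with estrogen lay far above the highest without it, and the log2 change with estrogen was 0.87 ± 0.06 (SE, fold 1.83, adjusted p = 4.02e-09). RPL7 itself measured 123 CPM in each control library and 142, 143 and 144 CPM with estrogen, a log2 change of 0.21 ± 0.06 (SE, adjusted p = 0.00453) that was 0.08 with library totals (adjusted p = 0.211, with a range of 0.000648 to 0.211 over the alternatives).

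The other larger rises were less even between libraries. RPL9 measured 42.8, 37.7 and 44.9 CPM in control and 60.9, 62.1 and 49.1 CPM with estrogen, which did not overlap (log2 change 0.46 ± 0.09, SE, adjusted p = 0.000432). RPS19, the gene first linked to Diamond-Blackfan anemia, went from 344, 316 and 421 CPM to 499, 507 and 437 CPM (0.42 ± 0.09, adjusted p = 0.000778), where the lowest estrogen library only just exceeded control library C. For RPS27 the groups overlapped: it measured 16.7, 12.9 and 27.2 CPM in control and 25.3, 27.6 and 27.3 CPM with estrogen (0.51 ± 0.19, SE, adjusted p = 0.0265). RPL39 overlapped as well, at 62.7, 57.8 and 78.4 CPM in control and 96.5, 104 and 60.1 CPM with estrogen (0.39 ± 0.16, SE, adjusted p = 0.0355). The call of RPS27 was lost without control library A (adjusted p = 0.0964) or B (0.0957) or without estrogen library A (0.0641), B (0.0692) or C (0.0712), with a range of 1.04e-05 to 0.16 over all alternatives. That of RPL39 was lost without control library A (0.102) or B (0.0947) or estrogen library A (0.191) or B (0.209), with a range of 0.000315 to 0.209. Both calls were also lost with library totals (adjusted p = 0.092 for RPS27 and 0.149 for RPL39) and with upper-quartile scaling (0.0533 and 0.0785).

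Of the other paralogs, RPL3L, a copy of RPL3 made mainly in heart and skeletal muscle, stayed between 0.0665 and 0.645 CPM in all libraries, too few counts to show a difference at this depth. RPL26L1 measured 11.5, 9.12 and 11.7 CPM in control and 9.35, 13.2 and 10.4 CPM with estrogen, which overlapped, and the sign of its small difference changed with the scaling. RPS27L, a p53-responsive copy of RPS27, measured 77.6, 77 and 61.7 CPM in control and 84.5, 77.8 and 87.6 CPM with estrogen (log2 change 0.21 ± 0.09, SE, adjusted p = 0.0424), and this call was lost without control library C (adjusted p = 0.165) or estrogen library A (0.139) or C (0.152), with a range of 0.0195 to 0.419 over all alternatives. The RPS27L call was also lost with library totals (adjusted p = 0.419) and with upper-quartile scaling (0.158). RPL10, whose copy RPL10L had no count, went from 265, 267 and 279 CPM to 313, 317 and 297 CPM without overlap (0.19 ± 0.06, SE, adjusted p = 0.00688), and the change was 0.07 with library totals (adjusted p = 0.318, with a range of 0.000832 to 0.318 over all alternatives). RPL26, which RPL26L1 copies, measured 229, 257 and 234 CPM in control and 278, 240 and 290 CPM with estrogen and was not called (0.17 ± 0.07, SE, adjusted p = 0.0536).

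Stalk proteins recruit the elongation factors to the ribosome. RPLP0, which anchors the stalk, went from 570, 547 and 626 CPM in control to 551, 511 and 497 CPM with estrogen (log2 change −0.16 ± 0.06, SE, adjusted p = 0.0403), and the groups overlapped at 551 CPM. Its call was lost without control library A (adjusted p = 0.0692) or C (0.144) or estrogen library B (0.0863) or C (0.114), with a range of 0.00122 to 0.144 over all alternatives. RPLP1 and RPLP2, its partners, were not called, at 323, 295 and 318 CPM and at 254, 265 and 232 CPM with estrogen against 271, 281 and 317 CPM and 220, 187 and 249 CPM in control. RPS27A and FAU encode a ribosomal protein fused to ubiquitin and to a ubiquitin-like protein. RPS27A went from 155, 132 and 164 CPM to 168, 205 and 165 CPM (0.25 ± 0.09, adjusted p = 0.0219), and FAU from 62.4, 55.7 and 76.3 CPM to 74.4, 87.6 and 69.5 CPM (0.26 ± 0.11, adjusted p = 0.0448). The RPS27A groups lay just apart, and its call was lost without control library B (adjusted p = 0.0894) or estrogen library B (0.19), with a range of 0.00326 to 0.24 over all alternatives. It was also lost with library totals (adjusted p = 0.24) and with upper-quartile scaling (0.0866). Estrogen libraries of FAU overlapped with control library C. The call of FAU was lost with library totals, with upper-quartile scaling, and without control library A (adjusted p = 0.125) or B (0.181) or estrogen library A (0.0959) or B (0.267), with a range of 0.00131 to 0.313 over all alternatives.

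RPL5 and RPL11 form a particle with the 5S ribosomal RNA that binds MDM2 when ribosome assembly fails. RPL5 rose from 439, 461 and 454 CPM to 539, 551 and 512 CPM with estrogen (log2 change 0.24 ± 0.06, SE, adjusted p = 0.00121), and was 0.11 with library totals (adjusted p = 0.0775, with a range of 1.27e-05 to 0.0979 over the alternatives). RPL11 measured 218, 195 and 264 CPM in control and 227, 242 and 274 CPM with estrogen, which overlapped. RPSA, also known as the laminin receptor, measured 162, 160 and 145 CPM in control and 173, 155 and 151 CPM with estrogen. RPS6, the substrate of the S6 kinases, measured 634, 692 and 624 CPM and 650, 654 and 696 CPM. Neither was called, and their small differences changed sign with the scaling.

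The effect of estrogen was also measured in cells exposed to CoCl2, in 6 libraries that are not among those of estrogen against control. With CoCl2+estrogen against CoCl2, 25 of the 83 genes rose and 7 fell, or 38.6% called, where 60.9% of 16200 genes tested were called, 30.1% higher and 30.8% lower. The median log2 change was 0.14, and 0.09 with library totals, under which 16 rose and 9 fell. Without CoCl2+estrogen library A, 13 genes rose and 8 fell. Over all genes, 4509 of 16200 were called higher with library totals and 4499 of 16101 without that library. Both were larger shares than of the 83. RPL22L1 (−1.40 ± 0.14), RPS26 (−1.06 ± 0.16), RPL3 (−0.67 ± 0.08), RPL12 (−0.65 ± 0.08) and RPL22 (−0.52 ± 0.13) had the largest falls among called genes, and RPL7L1 (0.92 ± 0.07), RPS27 (0.56 ± 0.13), RPL18 (0.41 ± 0.07), RPS19 (0.39 ± 0.10) and RPL9 (0.38 ± 0.14) the largest rises (log2 change ± SE). RPL9 overlapped between the groups, at 49.4, 34.2 and 32 CPM with CoCl2 and 49.8, 56.4 and 47.3 CPM with both. Its call was lost without CoCl2 library C (adjusted p = 0.146) or CoCl2+estrogen library A (0.0503) or B (0.106), with a range of 5.18e-05 to 0.146 over the alternatives. It was also lost with library totals (adjusted p = 0.0703) and with upper-quartile scaling (0.0503).

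Of the 32 genes that rose with estrogen alone, 24 also rose with estrogen in CoCl2, which was 75% of the first list and 96.0% of the second. All 7 genes that fell in CoCl2 were among the 12 that fell without it. Over the 80 ribosomal protein genes averaging at least 10 CPM, the 2 log2 changes had a Pearson r of 0.97 and a Spearman rho of 0.88, and over 9552 other genes r was 0.96. These describe genes and not replicates, and no p is given. In the test of the interaction, no ribosomal protein gene was called by edgeR, none had an unadjusted p under 0.05, and DESeq2 called none, whereas 5.8% of 16681 genes were called, 2.1% higher and 3.7% lower. The median interaction of the 83 genes was 0.05.

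CoCl2 alone called no ribosomal protein gene with edgeR, among 15872 genes tested of which 1.44% were called, 1.31% higher and 0.132% lower. Of the 83 genes, 19 (22.9%) had an unadjusted p under 0.05, all higher with CoCl2, against 11.3% of all genes tested, and DESeq2 called 1, RPL22. The 19 were 3 without CoCl2 library B, 4 without control library A, 8 without control library B, 32 without control library C, 35 without CoCl2 library A and 9 with library totals. The share of all genes under an unadjusted p of 0.05 is not given for these fits, so the counts have no background beside them. At the adjusted threshold these fits called between 136 and 249 of all genes, with 15734 to 15872 tested. The median log2 change of the 83 genes was 0.10, and 0.04 with library totals. The largest estimates came with wide spread. RPS25, a small subunit protein used by some viral internal entry sites, measured 105, 120 and 137 CPM in control and 122, 251 and 164 CPM with CoCl2 (log2 change 0.58 ± 0.21, SE, adjusted p = 0.337). CoCl2 library B stood far above its partners, and without it the log2 change was 0.24 ± 0.13 (adjusted p = 0.633), whereas without CoCl2 library A it was 0.80 ± 0.17 (adjusted p = 0.0477), the 1 call made with that library left out. RPL38 measured 101, 100 and 151 CPM in control and 119, 245 and 141 CPM with CoCl2 (0.53 ± 0.25, SE), and 0.15 ± 0.15 without library B.

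This spread was shared between genes. Among the 80 genes averaging at least 10 CPM, the first principal component of the deviations from group means held 49% of the variance. RPS25, RPL38, RPL27, RPL11 and RPS26 weighed most on one side of it, and RPL39, RPS14, RPS21, RPL9 and RPL41 on the other. CoCl2 library B had the highest score (1.66) and CoCl2 library A the lowest (−1.61), with CoCl2+estrogen library A at 0.93, estrogen library C at 0.87 and CoCl2+estrogen library B at −0.83. RPS14 had the reverse order to RPS25, at 227, 141 and 148 CPM in CoCl2 libraries A, B and C. In control libraries both kinds of gene were high in library C, in which 63 of the 80 genes had their group's highest level. CoCl2+estrogen library A likewise held the highest level of its group for 63 of the 80 genes. The cause of this spread was not tested.

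**Figure D3:**
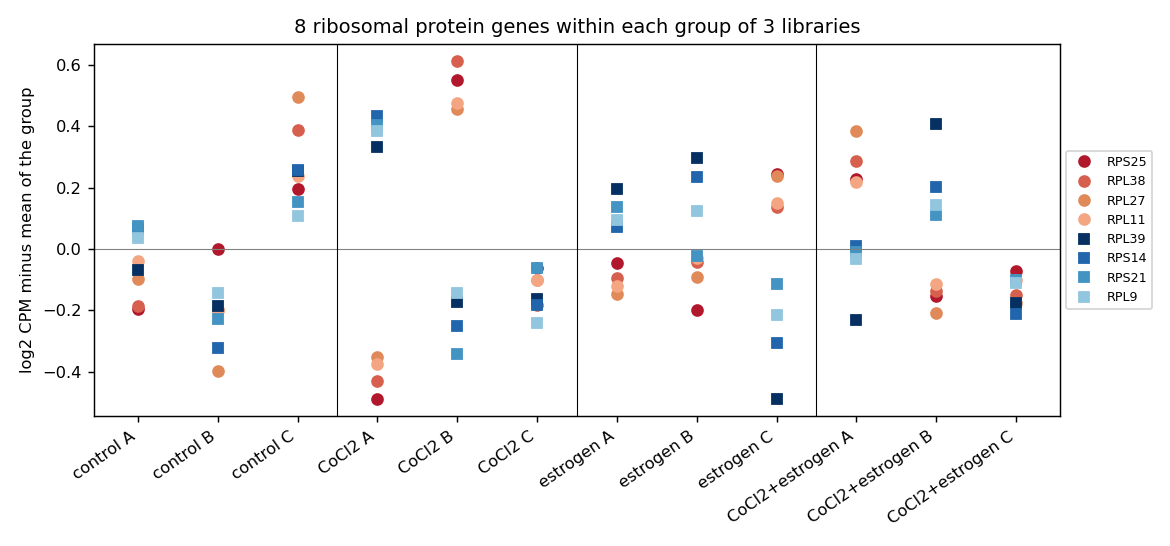
Deviation of 8 ribosomal protein genes from the mean of their group in each library, on the log2 CPM scale, with circles for 4 genes on one side of the first principal component and squares for 4 on the other. In CoCl2 library A the circles lie below and the squares above the group mean, and in CoCl2 library B the order is turned over, with RPS25 at 122 and 251 CPM in these 2 libraries.

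When CoCl2 was added to estrogen, 28 ribosomal protein genes rose and edgeR called none lower. All 42 genes with an unadjusted p under 0.05 (50.6%, against 29.1% of all genes tested) were higher, and DESeq2 called 30 higher and none lower. The 28 were 33.7% of the 83 genes, where 17% of 15925 genes tested were called, 8.14% higher and 8.85% lower. Among genes averaging at least 50 CPM over the 12 libraries, 26 of 75 ribosomal protein genes (34.7%) were called. Of 4637 other genes at that level, 28.7% were called in either direction, so the gap was smaller there. The median log2 change of the 83 genes was 0.13, and it was between 0.11 and 0.15 under every other scaling and tool that did not use the ribosomal protein counts themselves as library size. Large subunit genes made up 20 of the 28. The number fell to 11 without CoCl2+estrogen library A, 14 without estrogen library A and 15 without estrogen library B. Over all genes, 824 of 15829, 718 of 15774 and 911 of 15843 were called higher in these fits, smaller shares than of the ribosomal protein genes. The number was 1 (RPL12) when all 12 libraries shared one fit, which takes its spread from all 4 groups. In that fit 855 of 15925 genes were called higher, a larger share than of the 83. Without estrogen library C, RPL9 and RPS14 were called lower. With the letters A, B and C as a block in the fit, 45 ribosomal protein genes were called higher and 2 lower (RPS14 and RPS29). That fit called 1895 of all 15925 genes higher.

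RPS25 had the largest change among genes above 10 CPM, at 108, 96.7 and 132 CPM with estrogen and 197, 151 and 160 CPM with both agents. No library overlapped, and the log2 change was 0.60 ± 0.10 (SE, adjusted p = 0.000395), or 0.48 ± 0.09 without CoCl2+estrogen library A. RPL27 went from 115, 120 and 150 CPM to 238, 158 and 161 CPM (0.54 ± 0.12, adjusted p = 0.00535), where CoCl2+estrogen library A was well above the others and the change without it was 0.32 ± 0.09. RPL38, known for its part in translation of Hox mRNAs in mouse embryos, went from 111, 115 and 130 CPM to 199, 148 and 147 CPM (0.48 ± 0.10, adjusted p = 0.00198; 0.32 ± 0.07 without that library). RPL11 went from 227, 242 and 274 CPM to 390, 310 and 312 CPM (0.46 ± 0.08, adjusted p = 0.000844). RPS26 went from 24.8, 18.6 and 25.0 CPM to 36.5, 28.2 and 29.5 CPM (0.46 ± 0.12, adjusted p = 0.0107), a call that was lost without CoCl2+estrogen library A (adjusted p = 0.0794) or estrogen library B (0.0591), with a range of 4.68e-05 to 0.1 over the alternatives. The smallest called changes, of RPL10A, RPS20, RPLP1, RPL34 and RPL37A, were between 0.20 and 0.22, and each of these 5 calls was lost without CoCl2+estrogen library A and without estrogen library B.

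The genes that led here were those that led the within-group spread. Set beside each other, the log2 change with CoCl2 alone and with CoCl2 in estrogen was 0.58 and 0.60 for RPS25, 0.50 and 0.54 for RPL27, 0.53 and 0.48 for RPL38, 0.54 and 0.46 for RPL11, 0.40 and 0.40 for RPL22, and 0.40 and 0.46 for RPS26. These comparisons share no library. Over 80 ribosomal protein genes their Pearson r was 0.87 and Spearman rho 0.81, and over 9552 other genes r was 0.27, as a description of genes with no p. The part of the shared within-group spread in this likeness was not tested.

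RPL36A had the largest estimate, a log2 change of 1.94 ± 0.41 (SE, adjusted p = 0.003), from 0.445, 0.641 and 1.38 CPM with estrogen to 4.59, 1.71 and 3.02 CPM with both agents. It is uncertain, because between 8.2 and 136 counts per library were assigned to RPL36A and between 529.3 and 1567.3 to the readthrough gene RPL36A-HNRNPH2, which shares its exons. RPL17 and RPS10 also have listed readthrough partners, and many ribosomal protein genes have processed pseudogenes with which the authors' counting could split reads. Of the values of the 83 genes, 57.8% were not whole numbers (to within 0.001), against 20.3% over the whole table. Such values occurred in 56 of the 83 genes.

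Compared with control, CoCl2+estrogen gave the most called genes, 43 higher and 4 lower, or 56.6% of the 83, against a background of 65.4% of 16201 genes, 32.3% higher and 33.2% lower. The share called higher (51.8%) was above the background and the share called lower (4.82%) below it. The median log2 change was 0.22, and 0.12 with library totals, under which 30 rose and 8 fell. Without CoCl2+estrogen library A, 33 rose and 8 fell. Over all genes, 4581 of 16201 were called higher with library totals and 4896 of 16113 without that library. Both were smaller shares than of the 83. RPL22L1 (−1.31 ± 0.14), RPL3 (−0.71 ± 0.06), RPS26 (−0.68 ± 0.10) and RPL12 (−0.45 ± 0.09) were the 4 that fell. RPL7L1 (0.81 ± 0.06), RPS27 (0.72 ± 0.20), RPL24 (0.56 ± 0.07), RPL11 (0.55 ± 0.11) and RPS24 (0.47 ± 0.10) rose most (log2 change ± SE), and RPL32 (0.20 ± 0.07) least. RPL24, a large subunit protein at the bridge to the small subunit, measured 120, 129 and 131 CPM in control, 139, 166 and 143 CPM with CoCl2, 157, 158 and 173 CPM with estrogen and 206, 177 and 189 CPM with both. Its 4 groups followed one another without overlap except between CoCl2 and estrogen. Beside these, RPLP1 and RPLP2 rose by 0.27 ± 0.07 and 0.28 ± 0.09, RPL5 by 0.32 ± 0.06, RPS27A by 0.34 ± 0.08 and FAU by 0.34 ± 0.11, while RPLP0, RPSA, RPS6, RPL22, RPL39, RPS27L and RPL26L1 did not pass the test. Of these calls, those of RPL32, RPLP2 and FAU were lost with library totals (adjusted p = 0.208, 0.0879 and 0.0708) and without CoCl2+estrogen library A (0.136, 0.079 and 0.0693), that of RPL32 also without control library A (0.0916), and that of FAU also without CoCl2+estrogen library B (0.0755) or control library A (0.0505) or B (0.0504). Over all alternatives adjusted p ranged from 0.00425 to 0.981 for RPL32, from 0.000228 to 0.434 for RPLP2 and from 0.000269 to 0.226 for FAU.

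**Figure D4:**
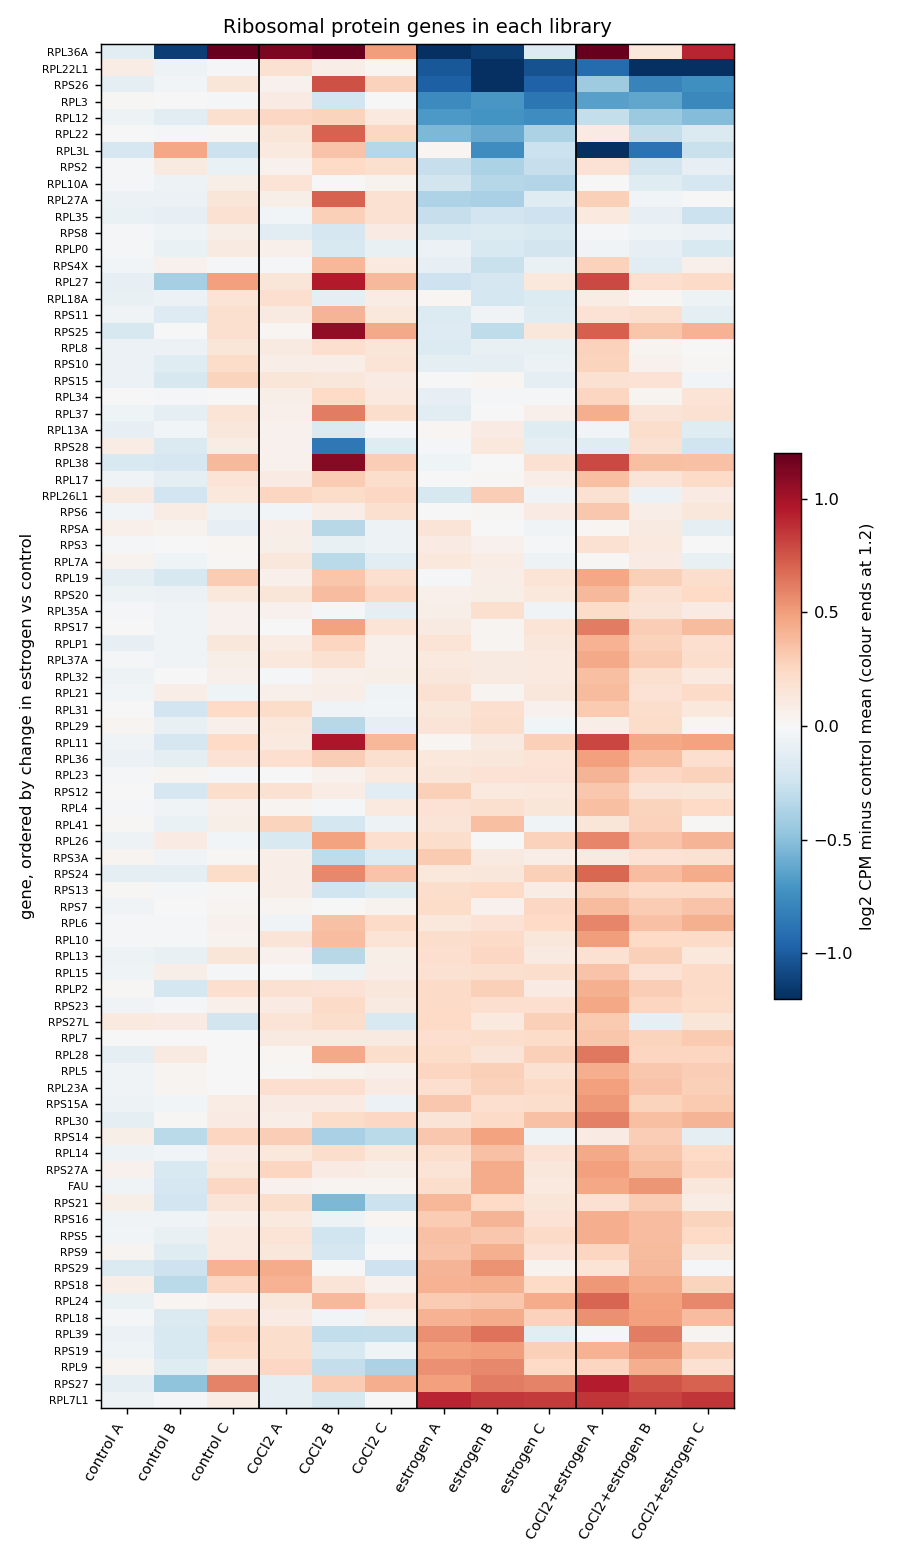
Level of each of the 83 ribosomal protein genes in each library as log2 CPM minus the mean of the control libraries, with genes ordered by their log2 change in estrogen against control and colour ending at 1.2. RPL22L1, RPS26, RPL3, RPL12 and RPL7L1 keep one direction of colour across all 6 libraries with estrogen, with RPL12 paler with both agents (−0.29 to −0.522). RPS27 also keeps its colour there (0.488 to 0.944), and control library C shares it (0.591). RPL36A at the lower end of the order (log2 change −1.25, not called) does not keep one colour. Most other rows are pale, and CoCl2 library B and CoCl2+estrogen library A stand out within their groups.

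Other genes of the protein synthesis machinery are described by their counts and medians beside the background above. Of the 79 mitochondrial ribosomal protein genes, which serve a separate ribosome in the mitochondria, 44 fell and 11 rose with estrogen, and the median log2 change was −0.30. MRPL17 (−1.70 ± 0.11), MRPL40 (−1.54 ± 0.10), MRPS7 (−1.35 ± 0.08), MRPL11 (−1.34 ± 0.08) and MRPS26 (−1.34 ± 0.08) had the smallest adjusted p. In CoCl2 the same list had 39 lower and 11 higher, with a median of −0.24.

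Regulators of ribosomal protein synthesis moved in both directions. Of 20 tested, 9 rose and 8 fell with estrogen. MYC rose from a mean of 230 ± 10.6 CPM in control to 912 ± 18.7 CPM with estrogen (SD, n = 3; log2 change 1.99 ± 0.06, SE, adjusted p = 4.8e-13). TSC1, an inhibitor of mTOR signaling, rose by 0.91 ± 0.06, and MLST8, a subunit of the mTOR complexes, fell by 1.37 ± 0.10. MDM2, the ligase that RPL5 and RPL11 can bind, rose by 0.74 ± 0.07. LARP1 was not called (−0.01 ± 0.06), and EIF4EBP1, an mTOR-controlled repressor of initiation, fell by 0.27 ± 0.07. The median of the list was −0.07.

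Among 64 ribosome biogenesis factors, 24 rose and 22 fell with estrogen (median 0.01), and in CoCl2 33 rose and 9 fell (median 0.25). RRP12 (1.04 ± 0.07), SBDS (1.16 ± 0.09), DDX52 (0.98 ± 0.06) and NOP2 (0.80 ± 0.06) rose with estrogen, and HEATR3, which carries RPL5 to the nucleus, fell by 1.56 ± 0.11. Of 14 RNA polymerase I genes and factors tested, 6 rose and 3 fell with estrogen, and RRN3, which starts polymerase I on ribosomal DNA, rose by 1.68 ± 0.06. TAF1D (0.83 ± 0.06), POLR1D (0.96 ± 0.06) and UBTF (0.46 ± 0.07) also rose, and POLR1G fell by 1.12 ± 0.09. When CoCl2 was added to estrogen, 25 of the 64 biogenesis factors rose and 2 fell.

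The 19 tested translation factors and other mRNAs known to carry a TOP motif had 7 genes called higher and 4 lower under estrogen and a median of −0.01. EEF1A1 (0.44 ± 0.05) and EEF2 (0.42 ± 0.05), the main elongation factors, and EIF3L (0.41 ± 0.06) rose, while RACK1, a scaffold protein of the small subunit, fell by 0.25 ± 0.06 on the log2 scale. Of the 30 other initiation factors, 14 rose and 9 fell with a median of 0.15, and EIF1, which helps select the start codon, rose by 2.00 ± 0.06. EIF3J (0.84 ± 0.06) and EIF2B2 (0.79 ± 0.07) also rose, whereas EIF4E2 (−0.73 ± 0.06) and EIF4A1 (−0.64 ± 0.06) fell. Of 26 tested ribosomal protein pseudogenes, 7 were called higher and 1 lower with estrogen (median 0.22), among them RPL23AP7 (1.53 ± 0.12), whose counts may share reads with the parent gene.

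**Figure D5:**
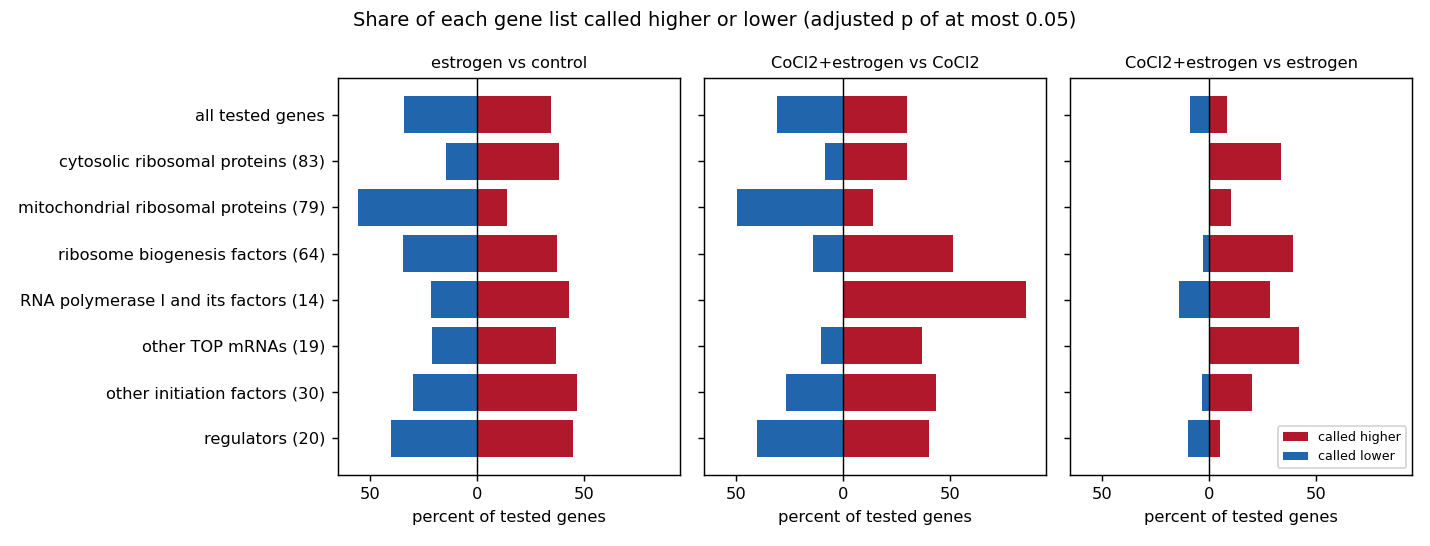
Percent of the tested genes of each list called higher (right) or lower (left) in 3 comparisons, with the number tested in parentheses and all tested genes on the top line. With estrogen the cytosolic ribosomal protein genes show a shorter lower bar (14.5%) than all tested genes (34.2%), and the mitochondrial ribosomal protein genes show 44 of 79 lower.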

How the data were processed

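RNA of HepG2 cells was sequenced as paired ends, in stranded Illumina libraries depleted of ribosomal RNA with Ribo-Zero Plus. Per the labels and the study's methods, the authors removed ribosomal and transfer RNA reads with Bowtie2 2.2.5, aligned the rest with STAR 2.7.8a and counted reads over RefSeq transcripts in Partek. The labels name hg38 and mm10 as builds, and the strand setting of the counting is not given in the sources used here. The deposited values are estimated counts per gene (expected counts, 57.8% of the values of the 83 genes not whole), and were rounded to whole numbers for testing. The table of mouse samples was not used here.

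Groups were taken from the sample labels. Each comparison used the libraries of its 2 groups, and the interaction used all 12. Genes with a rounded count above 5 in at least 1 library of a comparison were tested, scaled by TMM, with the quasi-likelihood test of edgeR 4.0.16 (on limma 3.58.1) in R 4.3.3, adjusted by Benjamini-Hochberg over all genes tested. DESeq2 1.42.0, other scalings, filters, the letter as a block and the loss of each library were alternatives. The fits were tested on simulated data in which genes varied independently and only a small part of them was changed. Such data cannot show how the fits behave with the shared spread and the many changes seen here. Total counts of 13592637 to 21701480 per library limit precision mainly for genes of low CPM, and no pair of libraries of a group agreed within counting error.

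The genes and lists were chosen with earlier results of these data known. Named genes were, in each comparison, the 5 called genes with the highest and the 5 with the lowest log2 change, the paralogs and the genes they copy, the stalk, ubiquitin fusion and 5S particle genes, RPSA, RPS6, the 3 genes with the highest and the 3 with the lowest CPM in control, and up to 5 genes of each list by smallest adjusted p. RPS2 as a fallen gene, the genes of the within-group component, those lost or gained under an alternative, the uncalled list genes and the interactions of list genes were named after their values were seen.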

Additional observations from a re-analysis of the deposited data

Results flagged for a closer look

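Several genes outside the ribosomal protein family had an effect of estrogen that differed between cells without and with CoCl2, by the test of the interaction in edgeR. Among ribosome biogenesis factors, 14 of 64 were called with a higher interaction, where 2.1% of all genes tested were. They were WDR3, RRS1, MRTO4, UTP15, GRWD1, PDCD11, RRP9, GNL3, PNO1, RRP1, WDR12, PWP2, URB1 and NIP7, with interactions of 0.33 to 0.69 on the log2 scale. WDR3, a factor of small subunit assembly, averaged 62.1 CPM in control, 54.1 CPM with CoCl2, 46.8 CPM with estrogen and 65.8 CPM with both.

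POLR1G, a subunit of RNA polymerase I, had an interaction of 1.46 ± 0.17 (log2, SE; adjusted p = 2.39e-05), falling with estrogen (40.8 to 18.8 CPM) and rising with estrogen in CoCl2 (30.9 to 39.1 CPM). MDM2 had one of −0.99 ± 0.10 (adjusted p = 9.87e-06), rising with estrogen (615 to 1030 CPM) and falling with estrogen in CoCl2 (712 to 600 CPM). Interactions were also called for POLR1C (0.68 ± 0.15, adjusted p = 0.00886) and POLR1B (0.60 ± 0.09, adjusted p = 0.000391), subunits of RNA polymerase I, and for MRPS26 (0.53), EIF4E2 (0.35), TSC1 (−0.32) and RRN3 (−0.30).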

How the results depend on the processing

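Counts and medians are given as the number of the 83 genes called and their median log2 change. With library totals, the medians were 0.04 (CoCl2 against control), −0.01 (estrogen against control) and 0.12 (CoCl2+estrogen against control), 7 genes were called higher with estrogen, 8 lower with CoCl2+estrogen against control and 16 higher against CoCl2. With upper-quartile scaling, estrogen gave 16 higher and a median of 0.05. With the summed ribosomal protein counts as library size, chosen after seeing the data, which by construction draws their median towards 0 and which enters the ranges over all alternatives, the medians were 0 (CoCl2), 0.04 (estrogen), 0.03 (CoCl2+estrogen against control), 0.03 (against CoCl2) and −0.01 (against estrogen), with 10 higher for estrogen, 9 higher and 10 lower against control, 6 and 11 against CoCl2, and 7 and 2 against estrogen. Over all genes, the summed-count scaling called 4904 of 16281 higher for estrogen. For CoCl2+estrogen it called 3637 of 16201 higher against control, 3981 of 16200 against CoCl2 and 390 of 15925 against estrogen. For CoCl2+estrogen against estrogen, all 12 libraries in one fit gave 1 higher, and no filter on low counts gave 1 lower (RPS14). DESeq2 called 1 gene higher with CoCl2. Without both CoCl2 B and CoCl2+estrogen A, also chosen after seeing the data, CoCl2+estrogen gave 8 lower against control, 11 higher against estrogen, and 14 higher with a median of 0.08 against CoCl2. Over all genes, the last of these fits called 4566 of 16003 higher, and the fit against estrogen 824 of 15829. The causes were not tested.

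Leaving out 1 library, higher calls ranged from 0 to 1 (CoCl2), 21 to 45 (estrogen), 33 to 54 (CoCl2+estrogen against control), 13 to 32 (against CoCl2) and 11 to 30 (against estrogen), and lower calls from 10 to 14 (estrogen), 4 to 8, 5 to 8 and 0 to 2 for the same 3. Each of these fits tested between 15722 and 16193 genes. Over all genes, higher calls ranged from 129 to 227 (CoCl2), 5091 to 5560 (estrogen), 4849 to 5130, 4412 to 4938 and 718 to 1200. In the fits other than CoCl2 against control, higher calls were 42.4% to 50.5% of all calls. The medians of the 83 genes ranged from 0.06 to 0.17 (CoCl2), 0.09 to 0.18 (estrogen), 0.17 to 0.30, 0.08 to 0.18 and 0.09 to 0.17, and that of the interaction from −0.03 to 0.08.

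Some uncalled genes changed sign. With estrogen, RPL26L1 was at −0.10 with library totals, −0.04 with upper-quartile scaling, −0.06 with the summed counts and −0.14 to 0.12 without 1 library. RPSA was at −0.09, −0.03 and −0.06 under those scalings and −0.04 to 0.07 without 1 library. RPS6 was at −0.09, −0.03 and −0.05 and 0 to 0.08, and RPLP1 was at −0.02 with library totals. In CoCl2+estrogen against control, RPL26L1 was at −0.06 with library totals, −0.16 with the summed counts and −0.06 to 0.11 without 1 library. RPS27L was at −0.01, −0.11 and −0.02 to 0.20. RPSA was at 0 with another filter (filterByExpr) and −0.07 to 0.03 without 1 library. RPL39 was at −0.04 to 0.34 without 1 library, and RPS6 at −0.05 with the summed counts.

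The letters A, B and C did not pair the libraries throughout. Deviations of same-letter libraries from their group means correlated between −0.53 and 0.53, above 0.1 in 5 of 18 pairs. Of the 12 libraries, 5 matched best with their own letter. Between estrogen and CoCl2+estrogen the correlations were −0.03 (A), 0.53 (B) and 0.33 (C), and between control and CoCl2 0.35, 0.33 and −0.07. Between control and CoCl2+estrogen they were −0.4, −0.53 and −0.44. With the letter as a replicate block, CoCl2+estrogen against estrogen gave 45 higher and 2 lower (RPS14 and RPS29). Over all 15925 genes, 3791 were called with the block and 2706 without it.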
